A study of Mus musculus with 42 samples.

Results

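The transcripts described here are 150 genes with a brief peak of polyA RNA 6 h after mouse embryonic stem cells (ESCs) entered medium for epiblast-like cells (EpiLCs). They were chosen by measured values. Of 16345 named genes in the deposited EpiLC table, 1662 had their highest level of the course without doxycycline (Dox) at 6 h with a normalised read count of 20 or more, leaving aside 1 gene that is not reported here. For each of these the spike was computed, which is log2(value + 1) at 6 h minus the higher of the same quantity at 0 h and at 24 h. The 150 genes of largest spike are the members.

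The course that chose the members came from KH2-ISY1, a mouse ESC line that makes Flag-tagged ISY1, a splicing factor, when Dox is added. Its 10 libraries without Dox were taken from 2i/LIF (0 h) and after 6, 12, 18, 24, 30, 36, 48, 72 and 96 h in EpiLC medium. The same table holds 4 libraries of KH2-ISY1 with Dox at 24, 48, 72 and 96 h, and 4 of cells replated into 2i/LIF from EpiLCs of 24 h or 48 h, with or without Dox (called cESCs in the labels). It also holds 6 libraries of a DGCR8 knockout ESC line, which lacks the partner protein of the nuclease that cuts primary microRNAs, at 0, 6, 24, 48, 72 and 96 h of the same induction. The labels do not say from which parent or clone that line came, so line and genotype cannot be told apart. A separately normalised table covers embryoid body (EB) formation of KH2-ISY1 without Dox, starting in serum/LIF on day 0 with libraries on days 1, 2, 4, 8, 10 and 13, and serum/LIF cells with Dox. Each condition and time has 1 library, so replicate spread is not known for any value.

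As background, the inhibitors of 2i medium block MEK and GSK3, and LIF activates STAT3, and together they hold ESCs in the naive state of the early epiblast. Leaving 2i frees the ERK cascade, whose early output includes the immediate early transcription factors EGR1 and FOSL1 and feedback genes of the DUSP, SPRY and PHLDA families. FOSL1 is a FOS-family subunit of AP-1, a dimer whose heptamer was searched here as TGANTCA, with any base (N) at its centre. AP-1 is also a well known regulator of keratins, kallikreins and cornified envelope genes in stratified skin. Genes of this kind make up the largest functional group among the members, although EpiLC medium is designed to lead to epiblast and not to skin.

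The 6 h library without Dox held 9.15 M reads, against 6.35 M at 0 h and 6.22 M at 24 h, and a single read was worth 0.595, 0.870 and 0.909 normalised units in the 3 libraries. In the knockout the 6 h library was the shallower of its trio, with 11.68 M reads against 17.84 M at 0 h and 12.91 M at 24 h. A gene at 0 had no read, which allows up to 3 reads in that library, or 2.61 units at 0 h without Dox (counting error only). Dgcr8 RNA lay between 36.8 and 44.5 in the 6 knockout libraries and between 75.2 and 231 in the 10 libraries without Dox. In the EpiLC course Isy1 RNA lay between 708 and 3038 with Dox and between 267 and 558 without, and in the 4 libraries returned to 2i/LIF between 221 and 331. The summed level of 21 naive pluripotency genes without Dox was 60086, 41077 and 5084 at 0, 6 and 96 h, and that of 20 formative epiblast genes 1635, 4543 and 16696.

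Promoter sequence is shown for members of large spike that were picked because it holds the AP-1 letters TGANTCA or TATAAA near the start. Most members with a sequence hold no AP-1 letters, as counted below. The stretches below are the 120 bases before the annotated start, 5′ to 3′ on the gene's strand, from RefSeq's GRCm38.p6. Capitals mark TGANTCA on either strand, and TATAAA where it begins 40 to 20 bases before the start on the gene's strand. Lor, loricrin of the cornified envelope, lies at chr3:92083143-92083262 on the minus strand. Krtdap, Dmkn and Sbsn are secreted proteins of stratified epidermis, at chr7:30787785-30787904, chr7:30763636-30763755 and chr7:30751351-30751470, all on the plus strand. Scel, sciellin of the envelope, lies at chr14:103513221-103513340 on the plus strand, and Adh7, an alcohol dehydrogenase of stratified epithelia, at chr3:138217653-138217772 on the plus strand. Nppb, brain natriuretic peptide, at chr4:147985780-147985899 on the plus strand, shows TATAAA with no AP-1 letters.
Lor: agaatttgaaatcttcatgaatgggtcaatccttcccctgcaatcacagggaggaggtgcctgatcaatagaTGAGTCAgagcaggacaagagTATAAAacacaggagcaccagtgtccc
Krtdap: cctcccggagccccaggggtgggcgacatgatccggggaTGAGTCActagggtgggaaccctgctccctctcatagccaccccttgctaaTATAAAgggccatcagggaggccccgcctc
Dmkn: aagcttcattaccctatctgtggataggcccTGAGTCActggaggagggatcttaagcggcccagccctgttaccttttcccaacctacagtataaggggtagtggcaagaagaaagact
Sbsn: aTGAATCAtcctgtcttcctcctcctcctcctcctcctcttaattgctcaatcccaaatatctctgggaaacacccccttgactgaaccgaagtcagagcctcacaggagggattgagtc
Scel: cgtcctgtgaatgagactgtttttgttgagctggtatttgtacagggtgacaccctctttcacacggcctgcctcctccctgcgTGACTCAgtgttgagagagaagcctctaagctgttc
Adh7: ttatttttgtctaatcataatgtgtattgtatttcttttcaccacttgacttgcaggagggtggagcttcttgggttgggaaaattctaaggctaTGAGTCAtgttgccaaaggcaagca
Nppb: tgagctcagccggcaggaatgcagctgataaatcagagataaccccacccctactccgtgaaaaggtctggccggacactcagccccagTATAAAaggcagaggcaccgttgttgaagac

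A window of 250 bases before the start was available for 101 members, 97 matched by symbol and the rest by a single synonym. TGANTCA stood in 15 of the 101 windows (14.9%), against 4.25% of the 11158 windows of genes in the EpiLC table and 6.87% of all 27025. Beside the 6 printed above these were Gm1045, Plaur, Anxa2, Procr, Plet1, Tinagl1, Osgin1, Slc6a12 and Ecm1. TATAAA in the core position, 40 to 20 bases before the start, was found in 11 windows (10.9%), against 1.33% of measured genes and 2.22% of all. CTTTGAT, the letters of TCF and LEF factors, stood in 7 windows (6.93%, against 2.28% of measured genes). CCGGAAG, the letters of ETS factors, stood in 5 (4.95% against 13.1%). The CArG box of SRF, searched with its ambiguous letters, was in 3 windows (2.97% against 1.18%), and the CCAAT box in 33 (32.7% against 37%). The cyclic AMP response element TGACGTCA, SMAD letters GTCTAGAC and E2F letters TTTGGCGC were in no member window, with 2.63%, 0.215% and 0.789% among measured genes. GCGGGGGCG, bound by EGR1, and the heat shock letters GAANNTTC were in 4.95% and 5.94% of member windows, against 4.78% and 5.1%. All motifs were searched on both strands except the core TATAAA. A CArG box can also hold CCAAT or TATAAA, and a match describes letters and not a bound site.

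Some members are neighbours in the genome. Of 145 members with a position in GRCm38.p6, 27 lay in 11 groups in which each member is within 200 kb of the next. The share for all measured genes was not computed, so the count does not show that members lie closer together than other genes. Genes that are no members can lie between, as in the 122 kb from Fam46b to Sfn, which hold 7 measured genes. Klk11, Klk10, Klk9 and Klk7, skin kallikrein proteases, share 41.8 kb of chromosome 7 in which Klk8 was the other measured gene and no member. Sbsn, Dmkn and Krtdap were the 3 measured genes of a stretch of 58.4 kb on the same chromosome. Krt6b, Krt6a and Krt5 share 36.9 kb of chromosome 15, and Serpinb9, Serpinb9b and Serpinb1b share 97.3 kb of chromosome 13. Reads of related genes among the 27 (Krt6a and Krt6b, Serpinb9 and Serpinb9b, Ly6a and Ly6c1) could be split between the genes by the authors' counting, so their separate levels are uncertain.

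Across the members the spike ran from 1.82 to 6.65 with a median of 2.64, on the log2(value + 1) scale, which understates the change of low genes. Values at 6 h ran from 20.2 (34 reads) to 5518.5, with a median of 117, and 70 members lay below 100. At 0 h 14 members had no read. The decline was quick, and the median member kept 36% of its 6 h value at 12 h, 18.5% at 18 h and 11.5% at 24 h. Slc23a3 and Npy were back at 0 reads by 12 h, while Adamts7 kept 97.9% and S100a6 87.7%. Under 20% was left at 12 h in 36 members and over 50% in 31. From 24 h to 96 h 36 members were at least 2-fold higher and 41 at least 2-fold lower. These values chose the members and are a description. The 3 members just inside the limit were Slc25a47, Ociad2 and Foxm1 with spikes of 1.86, 1.84 and 1.82, and the 3 genes just outside were Spred3, Rapgef3 and Krt13 with 1.81, 1.81 and 1.80.

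**Figure D1:**
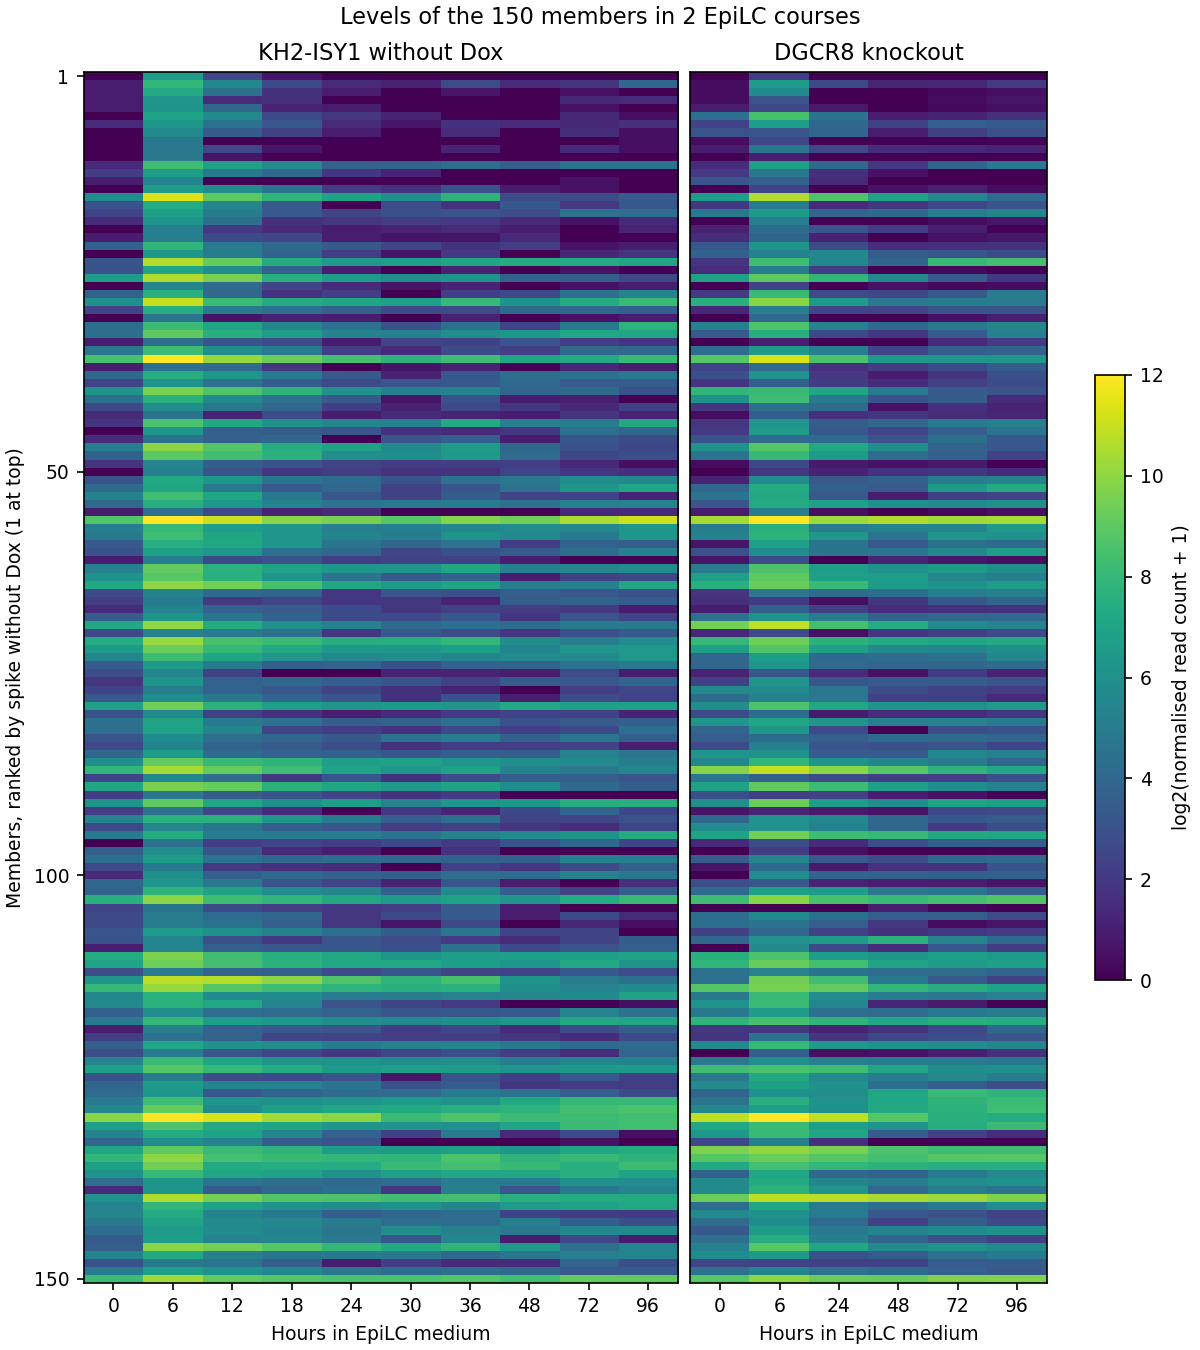
Levels of the 150 members, 1 row per gene, as log2(normalised read count + 1) by hour in EpiLC medium, without Dox on the left and in the DGCR8 knockout on the right, ranked by the spike without Dox. The column at 6 h is the brightest on the left because the rule asked for it, and it is also the brightest in the knockout for 127 of the rows.

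The DGCR8 knockout libraries took no part in the choice, and most members were also high at 6 h there. In the knockout 127 of 150 members had their highest level of the course at 6 h, against 18.4% of all genes. At 6 h 104 members were at least 2-fold above both 0 h and 24 h, against 489 of all 16345 genes (2.99%). The median spike of the members in the knockout was 1.59, against -0.16 for all genes. In all 140 members lay above 0, against 32.6% of all genes, and 10 at 0 or below, and 52 of the 110 genes at least 4-fold up in the knockout were members. Of the 104, 25 had a 6 h value under 20 in the knockout, and Krt6b and Clcf1 had under 3 reads there. With 1 library per hour none of these has a test. Applying the selection rule to the knockout course alone gave 150 genes, of which 66 were members, or 44% of each list.

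The share spiking in the knockout went down with the rank of the spike without Dox. It was 43 of 50 for ranks 1 to 50 (median 2.20), 36 of 50 for ranks 51 to 100 (median 1.48) and 25 of 50 for ranks 101 to 150 (median 1.01). Beyond the members it was 37 of 150 for ranks 151 to 300, 23 of 300 for ranks 301 to 600 and 17 of 1062 for the remaining genes that peaked at 6 h. Across the 150 members the spikes in the lines had a Pearson r of 0.43 and a Spearman rho of 0.39, across genes that share the same libraries. Only 18 members had a larger spike in the knockout than without Dox, in courses of which the latter had chosen them.

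**Figure D2:**
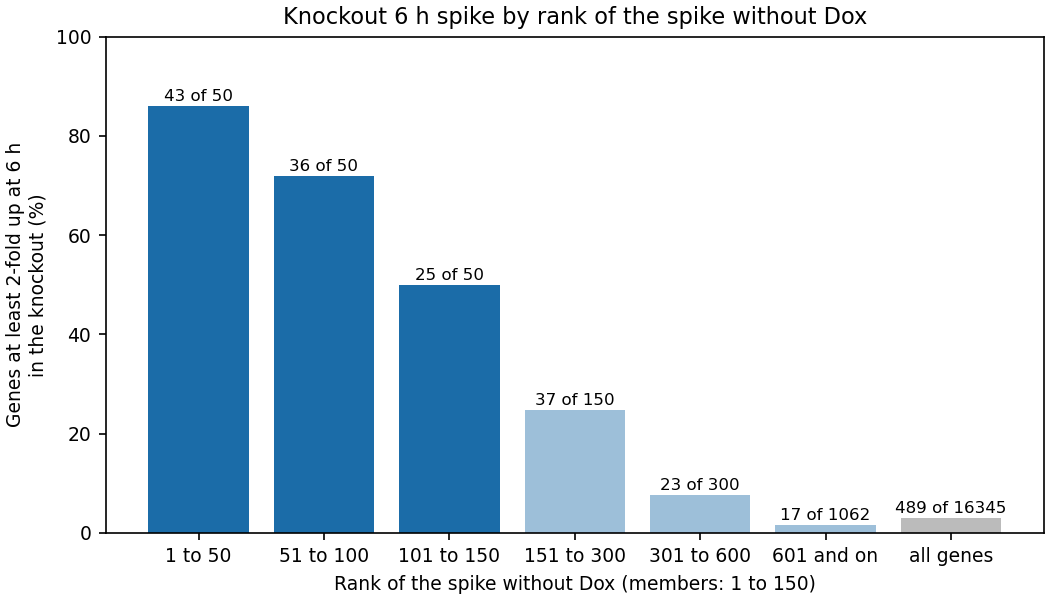
Percent of genes at least 2-fold above both 0 h and 24 h at 6 h in the DGCR8 knockout, by rank of the spike without Dox, with the count over each bar. The members are the bars for ranks 1 to 150, at 86%, 72% and 50%, and the grey bar for all genes stands at 2.99%.

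**Figure D3:**
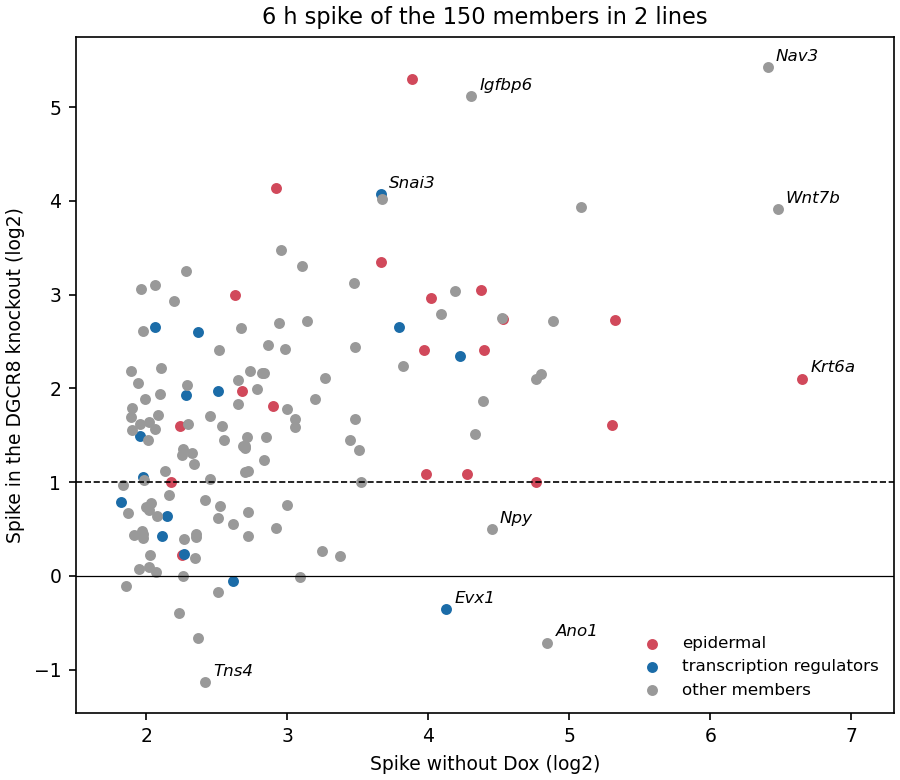
Spike at 6 h of each member without Dox (x axis) and in the DGCR8 knockout (y axis), both in log2 units, with a dashed line at 2-fold. Nav3 is highest in the knockout at 5.42, Igfbp6 stands at 5.12, and Tns4 is lowest at -1.13.

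Keratins, kallikreins and other epidermal genes were 20 members, the largest of the role groups, which were drawn up after the members were known. In the knockout 18 of them were at least 2-fold up at 6 h (median 2.26). Among the 18, Krt6a, Krt6b, Krt5, Klk7, Klk9, Dmkn, Lgals7 and Lor had knockout 6 h values under 20. That is below the minimum the rule set without Dox, so the knockout spikes of these genes are uncertain. Krt6a, a keratin of wounded and hair-bearing skin, went from no read at 0 h to 99.4 at 6 h, 4.8 at 12 h and 0.6 at 18 h without Dox, and had no read from 24 h on. That is at least 38.1-fold above the 3-read floor. In the knockout it was listed at 3.3 at 6 h and at 0 in the other 5 libraries, so both lines show it at 6 h but at very unequal levels. Krt5, the keratin of basal keratinocytes, read 0, 95.8, 58.7, 24.4 and 3.6 over the hours from 0 to 24 without Dox, and 4.3 at 6 h in the knockout. Sfn, the 14-3-3 protein of epithelial cells, had the highest 6 h value of all, 5518.5 from 431 at 0 h, then 2078 at 12 h and 738 at 24 h. Its knockout values at 0, 6 and 24 h were 1324, 4639 and 1197.

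Envelope, matrix and protease genes of the epidermal group differed in how the lines compared. Scel was 0.9, 20.2 and 1.8 at 0, 6 and 24 h without Dox and 0.9, 32.4 and 0.4 in the knockout, a larger spike there (4.14 against 2.92). Col7a1, the anchoring fibril collagen under the epidermis, stood at 316 and 113 in the lines at 6 h, from 1.7 and 1.9. Klk7 and Klk10, proteases of skin shedding, read 75.0 and 1532 at 6 h without Dox but 7.6 and 512 in the knockout. Of the 3 neighbours on chromosome 7, Sbsn was 7.0, 165 and 0 at 0, 6 and 24 h without Dox, Dmkn 0, 42.9 and 1.8, and Krtdap 7.0, 129 and 0.9. In the knockout they reached 30.5, 4.3 and 33.3 at 6 h, with spikes of 3.05, 2.41 and 2.96. Lor, at 0, 35.7 and 0.9 without Dox, was 1.3, 18.1 and 8.0 in the knockout, a spike of 1.09. Krt6b read 26.2 at 6 h without Dox and 0.6 at 12 h, and 1.0 at 6 h in the knockout, which is less than 3 reads. Klk9 was 0.9, 73.8 and 0.9 without Dox and 0.9, 4.8 and 0.8 in the knockout. Klk11 and Perp were the pair of the group below 2-fold, Perp with a knockout spike of 0.999.

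Secreted signals and their modulators were 13 members, of which 12 were at least 2-fold up at 6 h in the knockout. Wnt7b, a Wnt ligand, was 0.9 at 0 h and 248 at 6 h without Dox, then 47.9, 5.2 and 1.8 at 12, 18 and 24 h. The knockout gave 0.3, 96.7 and 5.5 at 0, 6 and 24 h. Igfbp6, which binds insulin-like growth factor 2, was 1.7, 72.0 and 2.7 without Dox and 0, 33.8 and 0 in the knockout. Nppb was 12.2, 239 and 9.1 without Dox and 8.8, 79.5 and 5.9 in the knockout. Hbegf, an EGF receptor ligand, was 57.4, 563 and 102 without Dox and 44.7, 241 and 73.0 in the knockout. Edn1, endothelin 1, reached 26.2 and 25.2 at 6 h in the lines, from 0 and 0.9. Npy, a neuropeptide, was the exception: it read 40.5 at 6 h without Dox with no more than 0.9 at any other hour, while the knockout had 8.1, 11.9 and 1.7 at 0, 6 and 24 h.

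Of 15 transcription regulators, 9 were at least 2-fold up at 6 h in the knockout. Fosl1 was 4.3 at 0 h, 176 at 6 h and 29.3 at 12 h, and stayed between 5.3 and 19.8 from 18 h on without Dox, and it was 1.6, 34.3 and 4.6 in the knockout at 0, 6 and 24 h. Egr1, an immediate early zinc finger factor, reached nearly the same 6 h level in the lines, 61.3 and 55.7, from 1.7 and 0. Id2, an inhibitor of basic helix-loop-helix factors and a BMP target, was 73.0, 538 and 104 without Dox and 59.1, 625 and 103 in the knockout. Snai3, a zinc finger factor of the SNAIL family, was 20.9, 518 and 40 without Dox and 10.0, 184 and 5.5 in the knockout. Cdx2, the caudal factor of trophectoderm and hindgut, was 0.9, 34.5 and 0.9 without Dox and 1.9, 13.8 and 1.3 in the knockout. Evx1, a homeobox gene of the primitive streak, differed: its knockout values were 12.5, 37.1 and 47.7, so that 24 h was above 6 h, whereas without Dox they were 0, 79.2 and 3.6. Tead4, Pou4f2, Tcf7l2, Tshz1 and Foxm1 also stayed below 2-fold in the knockout.

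Feedback and signalling proteins inside the cell were 11 members, 8 of them at least 2-fold up in the knockout. Phlda1, a pleckstrin homology protein induced by ERK, was 11.3 at 0 h and 945 at 6 h without Dox and kept 706 at 12 h and 254 at 24 h. In the knockout it was 38.1, 464 and 143. Dusp2, a phosphatase of ERK, was 0, 22.0 and 3.6 without Dox and 1.6, 5.7 and 1.7 in the knockout. Phlda2, an imprinted relative of Phlda1, had the larger spike in the knockout (3.06 against 1.96), with 13.1, 131 and 14.8.

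Among 17 receptors and surface antigens, 14 were at least 2-fold up at 6 h in the knockout. Plaur, the urokinase receptor, was 36.5, 563 and 80.9 without Dox and 31.9, 407 and 101 in the knockout. Tnfrsf12a, the TWEAK receptor, was 40.9, 236 and 60.9 against 19.1, 131 and 30.8. Il6ra, the interleukin 6 receptor, was 73.9, 775 and 66.4 without Dox but 238, 277 and 132 in the knockout, a spike of 0.22. Of 19 members of cytoskeleton, membrane scaffold and calcium binding, 13 were past 2-fold there. Nav3, which caps growing microtubules, was 0.9, 160 and 0.9 without Dox and 0.3, 54.8 and 0 in the knockout, its 5.42 being the highest knockout spike of any member. Flnc, filamin C of muscle, was 7.8, 1550 and 90.0 without Dox and 2.5, 316 and 44.7 in the knockout. Ptrf, cavin 1 of caveolae, was 358, 4011 and 356 without Dox and 455, 2470 and 377 in the knockout. Nefm, a neurofilament subunit, was 64.3, 1954 and 137 without Dox and 195, 921 and 84.8 in the knockout. Vim, the intermediate filament of mesenchyme, was 71.3, 1524 and 395 without Dox, but in the knockout 639, 1841 and 1750, so there it had a spike of 0.07.

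Proteases, serpins and matrix genes had 8 of 10 members past 2-fold in the knockout, among them Serpinb9b, a granzyme inhibitor, with 56.5, 2611 and 124 without Dox and 105, 1514 and 416 in the knockout. Serpinb1b was 3.5, 102 and 2.7 without Dox and 3.1, 26.7 and 2.1 in the knockout. Aebp1, a matrix protein of carboxypeptidase type, was 4.3, 110 and 4.5 against 31.3, 91.4 and 13.9, so that the knockout began higher. Enzymes, channels and transporters had 9 of 16. Slc23a3, an orphan carrier, read 26.8 without Dox and 4.8 in the knockout at 6 h, and at most 0.4 at any other hour in either of these lines without Dox. Adh7 was 0, 124 and 2.7 without Dox and 19.7, 368 and 23.2 in the knockout, and Ano1, a calcium-gated chloride channel, was 0, 53.6 and 0.9 against 7.5, 8.1 and 13.9. Ptgs2, inducible cyclooxygenase, was 9.6, 104 and 27.3 against 20.6, 175 and 37.6. The 29 members with no such role had 13 past 2-fold and the lowest median, 0.76. Klhdc8a, a kelch protein, was 1.7, 81.5 and 1.8 without Dox and 4.4, 106 and 15.2 in the knockout, and Lgi3, a secreted neuronal protein, 0, 23.2 and 0.9 against 0, 15.2 and 0. Osgin1, an oxidative stress response gene, was 3.5, 22.0 and 0 without Dox and 0.6, 1.4 and 0.8 in the knockout. Gm10800 belongs here, with 7.0, 42.3 and 8.2 without Dox and 14.4, 66.7 and 87.8 in the knockout, and its repeat-like sequence makes its counts uncertain.

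**Figure D4:**
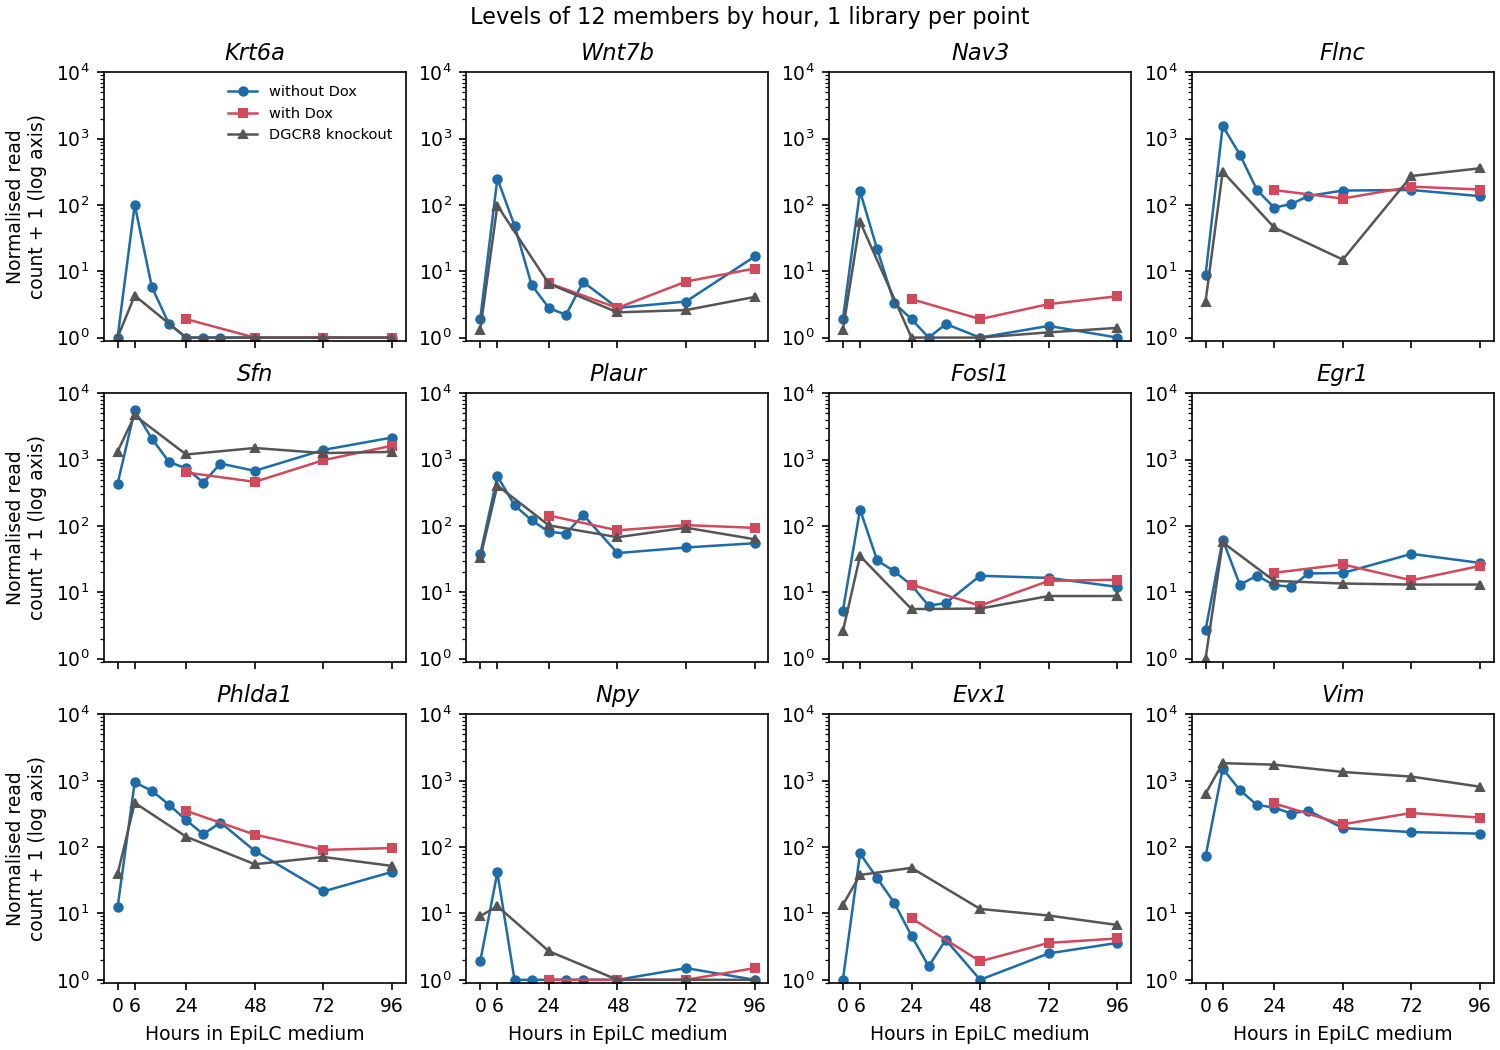
Normalised read count + 1 (log axis) by hour in EpiLC medium for 12 members, 1 library per point, without Dox (circles), with Dox (squares) and in the DGCR8 knockout (triangles). Most panels show a peak at 6 h in both courses that have that hour; Evx1 and Vim stay high at 24 h in the knockout.

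Genes of these and other pathways were read from lists that were not built from the members but hold some of them. The MEK/ERK, the immediate early and the YAP, SRF and actin lists hold 2 members each. The rule fixed the rise of those members at 6 h without Dox, so counts without Dox include them by choice. Among 17 MEK/ERK feedback and target genes, 11 were at least 2-fold higher at 6 h than at 0 h without Dox (10.7% of all genes) and 10 in the knockout (7.92% of all genes), with none 2-fold lower. Of these Fosl1, Phlda1 and Dusp5 were also 2-fold above 24 h in the knockout. Of 22 YAP, SRF and actin genes 11 were at least 2-fold higher and 1 lower at 6 h than at 0 h without Dox, and 15 were higher in the knockout. At least 2-fold above both 0 h and 24 h were 7 without Dox, against 3.9% of all genes, and 8 in the knockout, against 2.99%. Thbs1, thrombospondin 1, was 0.9, 167 and 51.8 at 0, 6 and 24 h without Dox and 1.6, 559 and 47.3 in the knockout, and Ctgf was 95.7, 396 and 138 against 95.6, 575 and 156. Of 25 immediate early genes 6 spiked in the knockout, against 2.99% of all genes, and 6 without Dox, against 3.9%. At 6 h against 0 h without Dox 9 of the 25 were at least 2-fold higher and 3 at least 2-fold lower. Fos, the AP-1 subunit, was 21.7, 10.1 and 0.9 without Dox and 5.0, 16.2 and 0.8 in the knockout. Of 10 BMP targets, which include the member Id2, 4 spiked without Dox and 2 in the knockout. Of 11 NF-kB and inflammatory targets 5 spiked in the knockout (2.99% of all genes) but 1, Tnfaip3, without Dox (3.9% of all genes). None of the 21 naive genes and none of the 20 formative genes spiked in either line, although 11 formative genes were at least 2-fold higher at 6 h than at 0 h without Dox. Members in these lists were Fosl1, Phlda1, Egr1, Id2, Cdx2, Vim, Krt19, Osgin1 and Evx1.

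Markers of other cells were summed per library beside these peaks. The 14 measured trophoblast genes summed to 1054 at 0 h, 2521 at 6 h and 716 at 24 h without Dox, and to 1150, 2442 and 1026 in the knockout. The sum includes Cdx2, a member, and Krt18, at 218, 802 and 170 at 0, 6 and 24 h without Dox. Of the 14, 6 were at least 2-fold higher and 3 at least 2-fold lower at 6 h than at 0 h without Dox. All 14 had reads at 6 h without Dox. The 13 primitive and visceral endoderm genes summed to 4430, 5179 and 2434 without Dox and to 3859, 5178 and 3630 in the knockout, with Cubn alone at 0 at 6 h without Dox. Of the 13, 4 were at least 2-fold higher and 5 at least 2-fold lower at 6 h than at 0 h without Dox. The 8 primitive streak genes summed to 146, 278 and 85.3 without Dox and to 124, 108 and 79.3 in the knockout. Evx1, a member chosen for its 6 h peak, is one of them, at 0, 79.2 and 3.6 without Dox. Of the 8, 2 were at least 2-fold higher and 2 at least 2-fold lower at 6 h than at 0 h without Dox. The 5 feeder fibroblast genes summed to 75.6, 52.3 and 63.6 without Dox. In bulk RNA more cells of a type and more RNA per cell cannot be told apart, and the part of these cells in the 6 h peak was not tested.

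Later levels of the members were compared between lines over the hours 48, 72 and 96. Of 127 members tested, 28 were higher in the DGCR8 knockout (22%) and 18 lower (14.2%), by limma with hour as a block, against 15.1% and 18.3% of all genes. The libraries without Dox at these hours had a part in the choice, since each member had to lie below its 6 h value in them. That can favour members higher in the knockout. The median difference was 0.12 for members and -0.07 for all genes. Vim was 1357, 1156 and 813 in the knockout against 193, 168 and 159, a difference of 2.65 ± 0.13 on the log2 scale (SE, 3 pairs, limma adjusted p = 0.00171). Anxa1, an annexin of epithelial cells, was higher by 3.86 and Gprc5a, an epithelial orphan receptor, by 2.71, and Prkcdbp, cavin 3, by 2.68. Snai3 was lower, with 2.8, 10.0 and 37.6 in the knockout against 81.4, 137 and 133, a difference of -3.29 ± 0.49 (limma adjusted p = 0.00762). Crym, Phlda2, Nefm, Tnfrsf12a and S100a6 followed with differences from -2.64 to -1.69. Each member named here had its direction in 3 of 3 pairs. Evx1 and Serpinb9b were among those higher, by 2.11 and 2.49, while Id2 and Egr1 were lower by -0.60 and -1.05. Without the 72 h pair 14 members were called, 8 higher and 6 lower.

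With Dox, when the Flag-ISY1 transgene is on, 13 of 133 members were higher than without Dox at 48, 72 and 96 h (9.77%, against 3.72% of all genes) and 5 were lower (3.76% against 3.26%). The same libraries without Dox that entered the rule are the base here too, and the comparison shares them with that of the knockout. Each member had to lie below its 6 h value in them, a condition not set on all genes. That can favour members higher with Dox, so the excess over all genes cannot be read as a trait of the members. Ptgs2 was 28.1, 29.2 and 13.1 with Dox against 0.9, 5.0 and 0.9, a difference of 3.05 ± 0.39 (SE, 3 pairs, limma adjusted p = 0.0186). Htra1, a secreted serine protease, was 153, 127 and 59.3 with Dox against 55.8, 17.0 and 10.6, a difference of 2.21. Serpinb9b, Agpat9, Cemip and Anxa1 were higher by 2.26, 2.16, 2.00 and 1.80, and Phlda1, Klk10, Gprc5a, Plet1, Perp, Plaur and Id2 by 0.60 to 1.71. Fhl2, Endod1, Efr3b, D8Ertd82e and Sfn were lower, by -1.79 to -0.49. Each of the 18 had its direction in 3 of 3 pairs. These calls rest on the 72 h pair, since without it 0 members passed in limma (30 at an unadjusted p under 0.05) and 0 genes in all. With the hour block or the intensity trend left out, 0 members passed as well (27 and 51 at an unadjusted p under 0.05). No library with Dox was taken at 6 h.

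Replating EpiLCs into 2i/LIF was compared with the EpiLCs they came from, in 4 pairs. Of 137 members 23 fell (16.8%, against 12.8% of all genes) and 3 rose (2.19% against 5.62%), and the median difference was -0.69, against -0.14 for all genes. The 24 h library without Dox, a source in 1 of the pairs, had been required to be low by the rule. The 48 h library without Dox, the source of another pair, also entered the rule, since each member had to lie below its 6 h value there. The shares of members and of all genes are therefore not fully like for like. Phlda1 fell from 254, 86.7, 351 and 154 in the 4 sources to 14.2, 10.0, 7.9 and 12.6, a difference of -3.97 ± 0.37 (SE, 4 pairs, limma adjusted p = 0.000442). Egr1 fell to 1.7, 0.9, 0.9 and 0.9, from 11.8, 18.6, 18.7 and 25.4, a difference of -3.20 (limma adjusted p = 0.00243). Sema7a, S100a6, Il34 and Ptgs2 fell by 3.14, 3.11, 2.41 and 2.29. Tinagl1, Krtdap and Gm21860 rose by 2.46, 2.33 and 2.03, all from values under 10 in the sources. Of the 17 MEK/ERK genes 15 fell and 0 rose in limma, with a median of -2.21. Each of these members moved one way in 4 of 4 pairs. Without the pair from EpiLCs of 24 h with Dox 7 members were called, and without the pair of 48 h with Dox 8.

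Over EB formation without Dox 130 members were in the table, and 42 passed with a fitted change above 0 (32.3%, against 17.3% of all genes) and 24 with one below 0 (18.5% against 9.61%). In 3 of the 66 the measured values went the other way between day 0 and day 13, namely Krt19, Vstm5 (76.1 to 62.2) and Nrp2 (180.0 to 244), which were low in between. The median fitted change from day 0 to day 13 was 0.57 for members and 0.12 for all genes, from a spline in the square root of the day. Pou3f2, a POU factor of neural precursors, had values of 3.86, 2.00, 2.44, 11.9, 809, 861 and 675 over the 7 days (fitted change 9.52, limma adjusted p = 0.00562). Vim rose from 87.5 in serum/LIF to 2560 on day 13 through 177 on day 2, 477 on day 4 and 1838 on day 8 (fitted change 5.69, limma adjusted p = 0.00163). Mpeg1, of macrophages, Slc23a3, Fhl2 and Id2 rose by 5.92, 5.55, 5.53 and 5.25, Cdx2 from 4.77 to 66.1, and Wnt7b from 15.7 to 97.2 after a low of 1.88 on day 4. Nefm rose from 28.4 to 731 and Scel from 0.68 to 23.9.

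**Figure D5:**
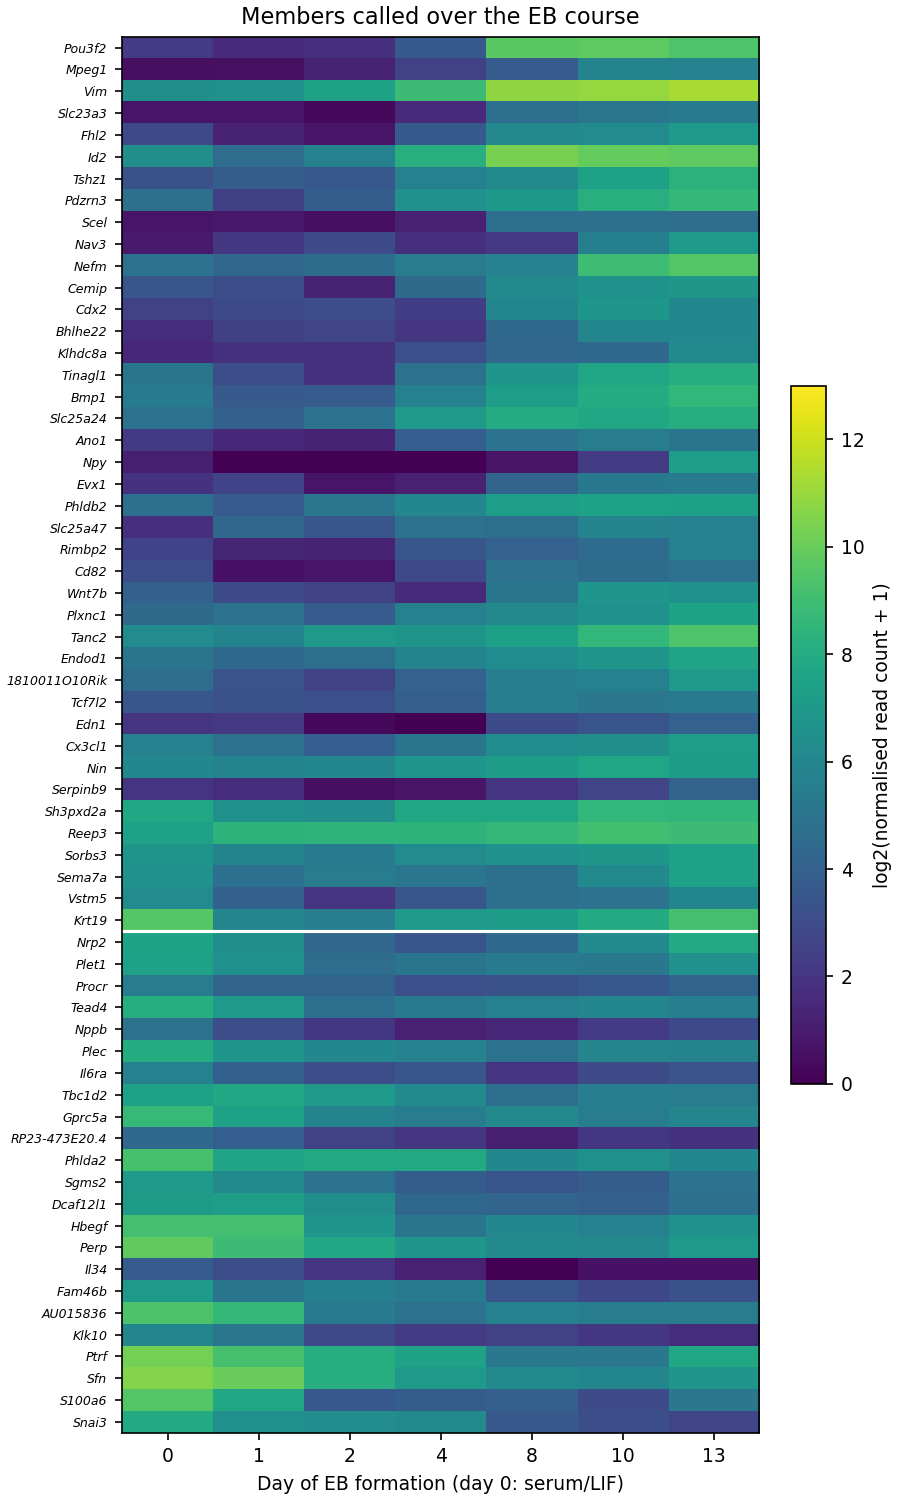
Levels of members called over the EB course as log2(normalised read count + 1), by day, ordered by the fitted change between day 0 and day 13. Members with a fitted change above 0 are above the white line and those below 0 are under it, and 2 of the 66 called members are not drawn.

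Among the members that fell in EBs, Sfn was 1550 on day 0 and 1026, 269, 128, 74.1, 62.2 and 109 on days 1 to 13 (fitted change -4.83, limma adjusted p = 0.00496). Snai3 went from 249 to 5.56 (-5.44) and S100a6 from 734 to 34.4 through 7.22 on day 10 (-5.39). Ptrf, Klk10 and AU015836 had fitted changes of -4.39, -4.25 and -4.11, and Perp, which holds desmosomes together, went from 913 to 127 (-3.65). Krt19 went from 759 to 46.7 on day 2 and came back to 569, and its fitted change of 0.12 changes sign under some settings. Krt5 and Krt6a did not pass, with 91.7 and 12.2 on day 13 and at most 12.2 and 1.11 before. Calls depended on the last days: without day 10, 30 members passed (21 with a change above 0, 9 below), and without day 13, 42 passed (23 above, 19 below).

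Some of these RNAs were also present in serum/LIF cells, as shown by examples chosen after their values were seen. The part of the medium in these levels was not tested. Levels in the 2 tables were normalised separately. Krt19, Sfn, S100a6 and Perp read 759, 1550, 734 and 913 in serum/LIF on day 0, against 18.3, 431, 74.8 and 173 in 2i/LIF at 0 h in the EpiLC table. Krt6a, Nav3 and Npy read 0.23, 0.91 and 1.14 in serum/LIF. Serpinb9b, Gsto1 and Anxa1 read 12.05, 367 and 40.2 there, below their 56.5, 948 and 69.6 in 2i/LIF. Members higher or lower in serum/LIF than in 2i/LIF were not counted. With Dox in serum/LIF, 21 of 130 members were at least 2-fold lower, against 8.07% of all genes, and 4 at least 2-fold higher, against 1.14%. Krt19 was 128 with Dox and 759 without, Anxa2 96.2 and 498, and Egr1 40.7 and 101. Sfn and Perp were 1779 and 1288 with Dox against 1550 and 913, both less than 2-fold apart. This is 1 library against 1, with no test.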

How the data were processed

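The members and gene lists were chosen with earlier results of these data known. Values are the authors' deposited signal, which the numbers show to be gene read counts divided by 1 size factor per library. The submitters' processing notes name Bowtie and the builds GRCm38 and mm9. The gene counter and annotation are not given in the sources used here. From them log2(value + 1) was computed here. Genes were kept in a fit where their mean value was 1 or more, and tested with limma 3.58.1 (R 4.3.3, intensity trend, two-sided), adjusted by Benjamini-Hochberg over all genes at 0.05. Pairs were blocked by hour or by source, leaving 2 or 3 residual degrees of freedom, so the spread between hours or sources stands in for replicates. The EB course was fitted with a natural spline (2 degrees of freedom) in the square-rooted day. edgeR 4.0.16 was run on whole reads recovered from the deposited signal, in libraries where 100% of values were within 0.1 reads of a whole number. Fits were also run on simulated counts with a single dispersion and a fixed change per gene. That run does not show how far the calls hold in these data. Named members were the 30 of largest spike, list members, the 8 largest and 8 smallest knockout spikes and the 6 largest called changes each way, and others are examples chosen after their values were seen. The values of 2 members are not reported here, though they count in all totals. Pseudocount, filter, scaling, trend, block and each left-out library were varied. In the EpiLC data 1 line without a gene name was left out. Replicate numbers pair nothing here, since each group has 1 library.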

Additional observations from a re-analysis of the deposited data

Results flagged for a closer look

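For 5 members the 6 h value in the DGCR8 knockout lay below its own 0 h value, although all were at least 1.86 log2 units higher at 6 h than at 0 h without Dox. The rule had fixed that rise without Dox. The share of all genes lower at 6 h than at 0 h in the knockout was not computed. The difference between the lines was not tested, since each hour has 1 library. The log2 difference from 0 h to 6 h in the knockout was -1.13 for Tns4, a focal adhesion protein, which went from 25.3 to 11, and -0.66 for Teddm3, which went from 6.6 to 3.8. It was -0.17 for Pdzrn3, an E3 ligase with PDZ domains, from 76.6 to 68.1, -0.11 for Slc25a47, a mitochondrial carrier, from 4.7 to 4.3, and -0.054 for Tshz1, a zinc finger factor, from 53.4 to 51.4. Without Dox the same differences were 3.21, 2.66, 2.51, 1.86 and 2.67. Tns4, Pdzrn3 and Tshz1 were higher at 0 h in the knockout than without Dox, where they read 4.3, 15.7 and 4.3. The knockout differences of Pdzrn3, Slc25a47 and Tshz1 were small, and the values of Teddm3 and Slc25a47 were low. For these members the values do not show a fall in the knockout, only the lack of a rise.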

How the results depend on the processing

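No paired analysis was possible because, for replicate numbers, each group has 1 library and the labels' numbers do not pair samples. The fits in pairs used the hour or the source as the block. Of the 150 members, at least 110 were also chosen with another pseudocount, minimum value, scaling or with 18 h in place of 24 h. With 12 h in place of 24 h 98 were, and 81 when 6 h was set against 12, 18, 30 and 36 h, libraries of like depth (chosen after seeing the data). The knockout count of 104 became 76 at 3-fold, 90 with a pseudocount of 5, 103 with median-ratio scaling, 119 at 1.5-fold and 123 against 0 h alone. Members called with Dox were 18, and 7 with no filter on low values, where 306 of all genes passed in place of 1122. They were 0 with no intensity trend and with no hour block, with 0 genes called in all (3764 and 2223 at an unadjusted p under 0.05). With the 24 h pair added 15 members and 456 genes passed, and leaving out 1 pair gave 0 to 41 members and 0 to 3868 genes. In the knockout comparison 46 members and 5369 genes became 24 and 2762 with no hour block, and leaving out 1 pair gave 14 to 37 members and 1395 to 5614 genes. For the return to 2i/LIF 26 members and 2960 genes became 1878 genes with no intensity trend, and leaving out 1 pair gave 7 to 24 members and 1236 to 3028 genes. edgeR called 21 members there and 67 over the EB course, where limma called 66. Leaving out 1 day of the EB course gave 30 to 75 members and 1919 to 5847 genes. The fitted EB change of Krt19 reversed to -0.14 without day 1, to -1.20 without day 13 and to -0.14 with edgeR, and leaving out 1 day gave -1.20 to 3.15. Median-ratio scaling changed the split of all genes in the knockout comparison from 2434 higher and 2935 lower to 2855 and 2489, and on return from 903 and 2057 to 1295 and 1599, with 20 members lower and 4 higher. The causes were not tested.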
